A study of Mus musculus with 6 samples.

Results

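Heat shock proteins and their DnaJ cochaperones were followed in mouse liver after treatment with a pellet of dihydrotestosterone (DHT), an androgen that aromatase does not turn into oestrogen. The members were every gene of the deposited tables whose symbol begins with Hspa, Hspb, Hspd, Hspe, Hsph, Dnaja, Dnajb or Dnajc and a digit, or with Hsp90, leaving out 12 symbols that mark pseudogenes. This gave 72 of the 49212 genes counted: 13 of the HSP70 family, 1 of HSP110, 3 of HSP90, 2 of the mitochondrial chaperonin, 8 small heat shock proteins, 4 of DNAJA, 13 of DNAJB and 28 of DNAJC. The rule read symbols and no measured value. The livers were 3 with a DHT pellet and 3 with placebo, all from C57BL/6J mice aged 15 weeks. The labels call the DHT-treated animals PCOS (polycystic ovary syndrome) mice and the others placebo controls, without naming sex, dose, pellet duration, litter or time of collection. Nothing in the labels says that the 3 samples of a group were separate animals, so p-values measure the spread between these samples.

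Chaperones of the HSP70 family bind stretches of unfolded protein and release them as they hydrolyse ATP. A DnaJ protein brings the client and starts the hydrolysis, and an HSP110 protein swaps the ADP for ATP. HSP90 takes over late folding clients, among them the androgen and glucocorticoid receptors, while small heat shock proteins hold unfolding proteins without using ATP. The transcription factor HSF1 raises many of these genes after heat or proteotoxic stress, whereas the members of the endoplasmic reticulum (ER) are raised by the unfolded protein response. In hepatocytes the ER members serve the folding of secreted plasma proteins.

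The libraries held between 41336844 and 60209462 counts, and 3 counts in 1 library corresponded to at most 0.0726 counts-per-million (CPM). Values below are CPM on library sizes scaled by the trimmed mean of M values (TMM), and RPKM (the same per kilobase of exon) wherever levels of different genes are compared. The 5 hepatocyte markers summed to between 68760.4 and 82573 CPM in DHT livers and between 91779 and 127608 CPM in placebo livers. Sex chromosome transcripts split the libraries: the Y-linked Ddx3y had 70.5, 68.5 and 73.2 CPM in DHT livers and at most 0.103 CPM in placebo livers, while Xist, made from the inactive X, had at most 0.515 CPM in DHT livers and 43.4, 25.2 and 255 CPM in placebo livers. The labels name no sex, so treatment, a difference in sex and a wrong label cannot be told apart in any difference given here. Outside sex chromosome transcripts, 1 marker gene of 11 cell type lists was called, the lymphocyte gene Gzma, which was lower in DHT livers. Placebo library 3 stood apart from the other placebo libraries in a way that followed exon length, which is given below with the members it touched. In whole tissue, fewer cells of a type and less RNA per cell cannot be told apart.

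Of the 72 members, 58 had a mean of at least 1 CPM and 14 of at least 100 CPM. All members together took 0.903%, 0.702% and 0.722% of the counts in DHT livers and 0.735%, 0.661% and 0.569% in placebo livers, so the groups overlapped. Per kilobase and over all 6 libraries, the highest member was Hsp90ab1, the constitutive cytosolic HSP90, with means of 349.9 RPKM in DHT livers and 292 RPKM in placebo livers. It was followed by Hspa5, the HSP70 of the ER also called BiP, with 264 RPKM in DHT livers and 185 RPKM in placebo livers. Hspa8, the constitutive cytosolic HSP70, averaged 204 RPKM in DHT livers and 211 RPKM in placebo livers. In placebo livers alone, Hspa8 and Hsp90b1 (225 RPKM) both stood above Hspa5. At the low end, 10 members did not pass the filter on low counts, with a highest mean of 0.166 CPM, and 3 of them (Dnajc5b, Dnajc5g and Hspb3) had no count in any library. A count of 0 allows up to 3 counts per library, which covers counting error only. The other members below the filter were Dnajb3, Dnajb7, Dnajb8, Dnajc6, Hspa1l, Hspb7 and Hspb9.

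**Figure D1:**
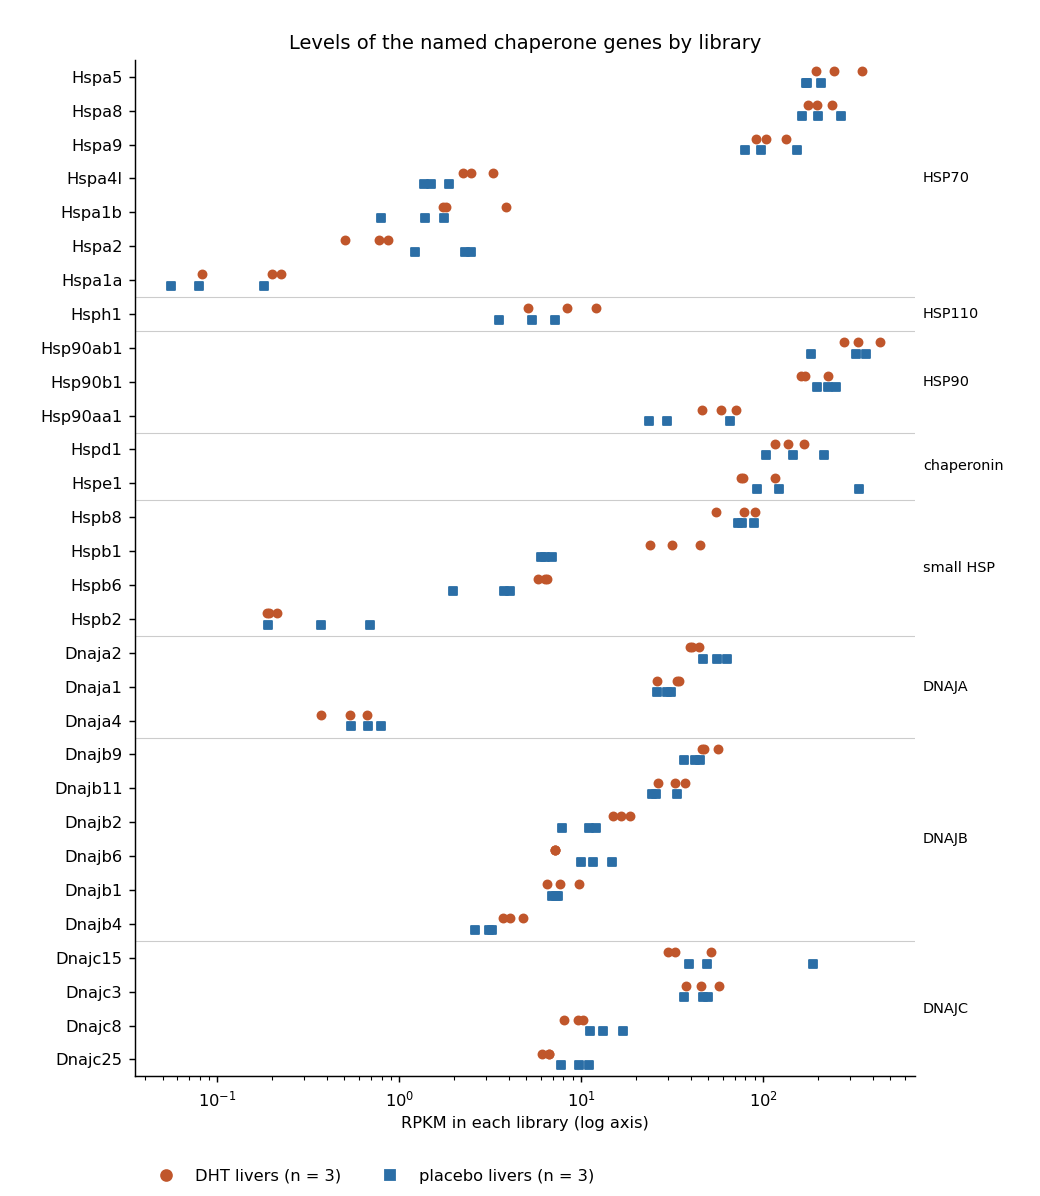
RPKM of the 30 named members in each library on a log axis, by family, with DHT livers as circles above placebo livers as squares. Levels span from Hspa1a under 1 RPKM to Hsp90ab1 above 100, and Hspb1 shows a wide gap between its groups.

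Among the 62 members tested, 1 was called higher in DHT livers and 0 were called lower, by edgeR's quasi-likelihood test at a Benjamini-Hochberg adjusted p under 0.05 over all 15126 genes tested. Of all genes tested, 0.952% were called higher and 0.701% lower, so the count of members was close to the background. At an unadjusted p under 0.05 there were 7 members, against 15.9% of all genes. DESeq2 called 1 member higher (Hspb1) and 2 lower (Hspa2 and Dnajb6), where it called 3.3% of all genes higher and 3.73% lower. Limma's voom called 1 member higher (Hspb1) and 1 lower (Hspa2), where it called 2.43% of all genes higher and 2.24% lower. With the replicate numbers as a block, edgeR called 2 members higher (Hspb1 and Hspb6) and 2 lower (Hspa2 and Dnajc15), where 5.44% of all genes were called higher and 5.28% lower. The median log2 fold change, DHT minus placebo, was 0.08 over the members and -0.02 over all genes, with 32 members above 0 and 30 below. Scaling by library size alone moved the median of all genes to 0.17 and put 39 members above 0. Without DHT library 1 the members' median was -0.04. Most differences were small: 42 of the 62 lay within 0.5 of 0 on the log2 scale, and 5 lay beyond 1.

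All 3 DHT livers lay above all 3 placebo livers for 7 of the 62 members (Hspb1, Hspb6, Hspa4l, Dnajb2, Dnajb4, Dnajb9 and Dnajc17), and this order held for 12.7% of all genes. The reverse order held for 5 members (Hspa2, Dnajb6, Dnajc25, Dnajc8 and Dnaja2), and for 10.9% of all genes. Neither share of the members stood above that of all genes. DHT library 1 was the highest of its group for 38 of the 62 members (61.3%), against 30.9% of all genes, and DHT library 3 the lowest for 33 (53.2%), against 39.8% of all genes. Placebo libraries ran likewise, with library 1 the highest for 27 members (43.5%), against 28.1% of all genes. Placebo library 3 was the lowest for 31 (50.0%), against 41.9% of all genes.

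**Figure D2:**
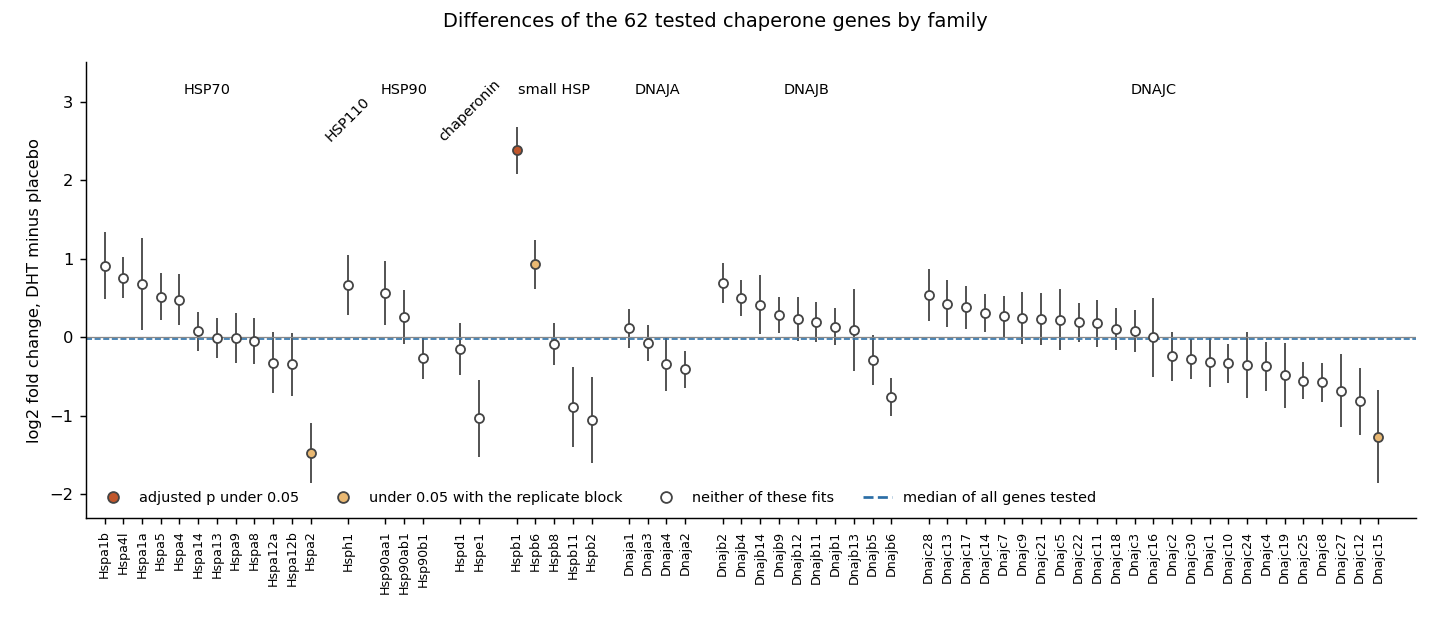
Log2 fold change, DHT minus placebo, of the 62 tested members, ordered within families, with bars of 1 standard error from edgeR. Hspb1 is the filled point at 2.38, the pale points Hspb6, Hspa2 and Dnajc15 missed the threshold there and passed it with the replicate block, and most others lie within 0.5 of the line at 0.

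Small heat shock proteins held the member that rose. Hspb1, also called Hsp25 in the mouse and Hsp27 in humans, is a small heat shock protein that binds unfolding proteins and caps actin filaments. It had 46.7, 32.6 and 24.7 CPM in DHT livers, against 7.17, 6.56 and 6.23 CPM in placebo livers. The lowest DHT liver stood well above the highest placebo liver, and the placebo livers differed little. Its mean was 34.7 ± 11.1 CPM in DHT livers and 6.65 ± 0.479 CPM in placebo livers (SD, n = 3 each), a 5.21-fold difference with a log2 fold change of 2.38 ± 0.30 (SE) and an edgeR adjusted p of 0.00963. Leaving out placebo library 1 or placebo library 2 ended the call, with edgeR adjusted p of 0.0555 and 0.0504, while the log2 fold change stayed at 2.42 and 2.36. Levels per kilobase were 33.6 RPKM in DHT livers and 6.45 RPKM in placebo livers, below Hspb8 in both groups.

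Hspb1 lies on chromosome 5 at 135887919 to 135889563 on the plus strand of GRCm38, per the deposited tables. The 200 bases before its start are shown because they hold 2 matches of GAANNTTC, the head-to-head pair of units of a heat shock element, to which HSF1 binds as a trimer when at least 3 units adjoin. They are given from RefSeq's table for GRCm38.p6, at chr5:135887719-135887918 on the plus strand, with the matches in capitals.
Hspb1: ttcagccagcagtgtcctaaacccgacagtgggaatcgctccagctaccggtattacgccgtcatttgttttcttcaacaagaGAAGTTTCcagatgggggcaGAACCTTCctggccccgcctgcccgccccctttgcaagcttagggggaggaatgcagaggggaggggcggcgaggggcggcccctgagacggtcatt
The pair was searched as GAANNTTC or TTCNNGAA, which covers both strands since each reads the same on either, in windows of 250 bases before to 50 after each start. It stood in 16 of the 58 members with a window (27.6%) and in 16.97% of 27025 genes, so it is common at any promoter. The triple GAANNTTCNNGAA, searched on both strands and always also holding the pair, was not found in the window of Hspb1.

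Other small heat shock proteins did not pass the threshold. Hspb6, also called Hsp20 and known as a target of cyclic nucleotide-dependent kinases in muscle, had 14.9, 14.6 and 13.4 CPM in DHT livers, against 9.34, 8.63 and 4.54 CPM in placebo livers. The groups did not overlap, with a log2 fold change of 0.93 ± 0.31 (SE) and an edgeR adjusted p of 0.21, or 0.0158 with the replicate block. Hspb8, a partner of BAG3 in the removal of misfolded proteins and the highest small heat shock protein per kilobase, had 175, 108 and 154 CPM in DHT livers, against 174, 141 and 149 CPM in placebo livers. Its groups overlapped fully, with a log2 fold change of -0.09 ± 0.27 that was 0.10 with library size alone. Hspb2, which shares 30.2% of its exon length with Cryab on the other strand, had at most 0.576 CPM in any library. Hspb11, a part of the intraflagellar transport machinery despite its name, had 2.24, 2.72 and 3.83 CPM in DHT livers, against 3.54, 2.72 and 9.99 CPM in placebo livers. Since small heat shock proteins are abundant in muscle, the 6 skeletal muscle markers are given beside them: they summed to between 0.644 and 0.812 CPM in DHT livers and between 0.432 and 1.51 CPM in placebo livers, with Ckm and Myh1 at 0. Adipocyte markers summed to between 14.9 and 21.4 CPM in DHT livers and between 5.71 and 22.1 CPM in placebo livers, with Lep at 0. Nearly all of that sum was Fabp4, at 14.9 to 21.4 CPM in DHT livers and 5.69 to 22.1 CPM in placebo livers. The other 4 of the 5 adipocyte markers stayed under 1 CPM in every library. Stellate cell markers summed to between 202 and 245 CPM in DHT livers and between 242 and 472 CPM in placebo livers, so these ranges overlapped.

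**Figure D3:**
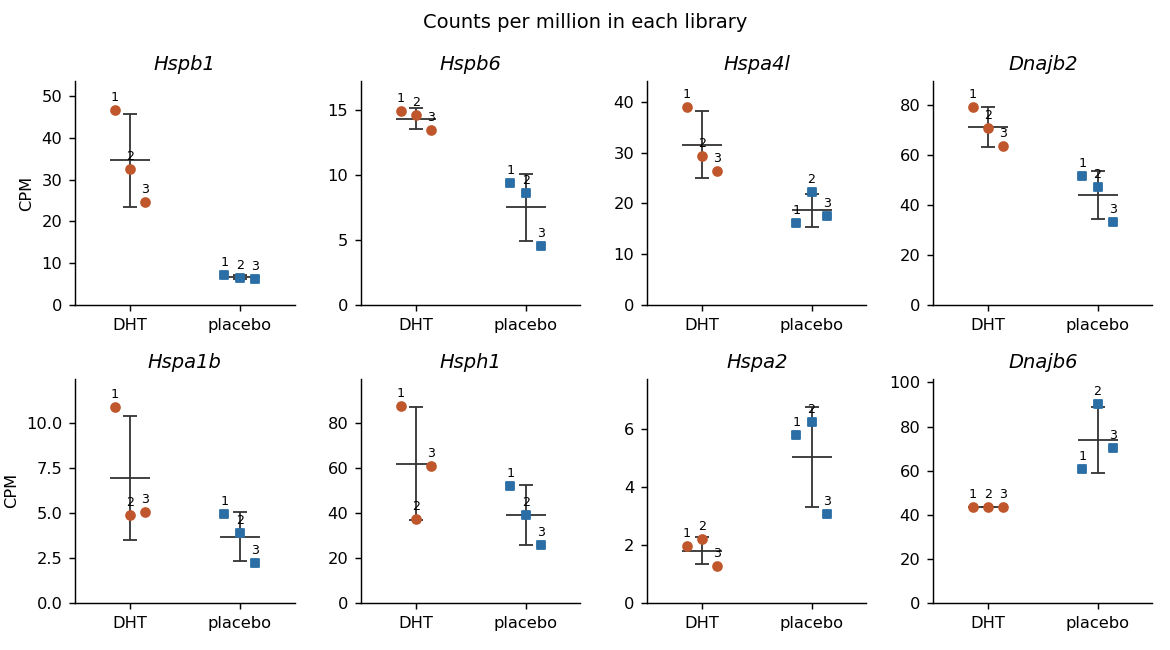
CPM of 8 members in each library on axes that start at 0, with library numbers, the mean as a line and bars of 1 SD (n = 3 per group). Hspb1 at 24.7 or more in every DHT liver stands clear of placebo, Hspa1b and Hsph1 are led by DHT library 1, and Hspa2 and Dnajb6 are lower in every DHT liver.

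In the HSP70 family the largest differences were at members with low counts. Hspa2, known for its role in male meiosis, had 1.95, 2.20 and 1.28 CPM in DHT livers, against 5.80, 6.25 and 3.06 CPM in placebo livers. Every DHT liver lay below every placebo liver, with a log2 fold change of -1.47 ± 0.38 (SE). The call depended on the method: edgeR's adjusted p was 0.117, or 0.00222 with the replicate block and 0.0128 without placebo library 3, DESeq2's was 0.00499 and that of limma's voom 0.02. Hspa4l, an HSP110-like member of the family that acts as an exchange factor, had 38.9, 29.4 and 26.4 CPM in DHT livers, against 16.1, 22.3 and 17.6 CPM in placebo livers. Its groups were apart, with a log2 fold change of 0.76 ± 0.26 and an edgeR adjusted p of 0.217. Hspa4, its close relative, had 155, 151 and 112 CPM in DHT livers, against 112, 127 and 60.9 CPM in placebo livers, which overlapped.

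Hspa1a and Hspa1b, the HSP70 genes that heat induces most, are neighbouring copies whose counts cannot be separated with certainty. A stretch of 150 bases, the read length in the labels, was found in both transcripts at 38.1% of the positions of Hspa1a and 40.5% of those of Hspa1b, and the treatment of reads with several matches is not stated in the labels. Hspa1a also shares 19.0% of its exon length with Gm20481 on the other strand. Summed, the pair had 11.6, 5.45 and 5.32 CPM in DHT livers, against 5.49, 4.12 and 2.38 CPM in placebo livers. DHT library 1 stood at about the sum of the other DHT livers, and both of those lay just below placebo library 1. Hspa1b alone had a log2 fold change of 0.91 ± 0.43 (SE) with an edgeR adjusted p of 0.347, and Hspa1a, at most 0.665 CPM in any library, had 0.68 ± 0.58. The 200 bases before the start of Hspa1b are shown because they hold the paired heat shock units, in capitals, at the same place as in Hspa1a. They come from RefSeq's table for GRCm38.p6, at chr17:34959239-34959438 on the minus strand, and differ from those of Hspa1a at 1 of 200 bases.
Hspa1b: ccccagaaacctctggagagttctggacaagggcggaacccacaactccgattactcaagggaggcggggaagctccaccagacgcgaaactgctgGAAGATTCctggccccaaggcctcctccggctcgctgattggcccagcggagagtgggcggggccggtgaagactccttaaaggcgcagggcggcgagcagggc

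Constitutive HSP70 members of the cytosol and mitochondria showed no called difference. Hspa8 had 1032, 757 and 847 CPM in DHT livers, against 1152, 866 and 705 CPM in placebo livers, with a log2 fold change of -0.05 ± 0.29 (SE) that was 0.13 with library size alone. Hspa9, the mitochondrial HSP70 that pulls in imported proteins, had 523, 406 and 362 CPM in DHT livers, against 383, 603 and 314 CPM in placebo livers, with a log2 fold change of -0.01 ± 0.32. Both ranges overlapped. Hsph1, the HSP110 exchange factor that HSF1 induces, had 87.5, 37.2 and 61.0 CPM in DHT livers, against 52.1, 39.2 and 25.6 CPM in placebo livers. The groups overlapped with DHT library 1 far above the rest, and the log2 fold change of 0.67 ± 0.38 had an edgeR adjusted p of 0.425 and lay at 0.34 in the lowest of the fits that left out a library.

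HSP90 members overlapped between the groups throughout. Hsp90ab1 had 1315, 999.6 and 833 CPM in DHT livers, against 1104, 978 and 549.6 CPM in placebo livers, a log2 fold change of 0.26 ± 0.34 (SE). Hsp90aa1, the inducible cytosolic form, had 279, 230.4 and 183 CPM in DHT livers, against 257, 117 and 92.6 CPM in placebo livers, a log2 fold change of 0.57 ± 0.41 with an edgeR adjusted p of 0.526. In each group library 1 was the highest and library 3 the lowest for both genes. Hsp90b1, the HSP90 of the ER also called Grp94, had 922, 651 and 683 CPM in DHT livers, against 1009.9, 915 and 795 CPM in placebo livers. Its difference of -0.27 ± 0.27 ran opposite in sign to those of the cytosolic forms, and 15.7% of its exon length is shared with 1810014B01Rik on the other strand.

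By edgeR's test no member was called in the ER lumen. Hspa5 had 1488, 823 and 1039 CPM in DHT livers, against 878, 731 and 736 CPM in placebo livers. Its DHT livers overlapped placebo library 1 through DHT library 2, with a log2 fold change of 0.51 ± 0.30 (SE) and an edgeR adjusted p of 0.433. Dnajb9, the ER DnaJ that represses the stress sensor IRE1, had 106, 86.3 and 88.7 CPM in DHT livers, against 78.5, 68.5 and 83.8 CPM in placebo livers. These groups did not overlap, but the difference of 0.29 ± 0.23 had an edgeR adjusted p of 0.568. Dnajb11, which works with BiP on unfolded clients, had 120.5, 85.9 and 106 CPM in DHT livers, against 109, 83.6 and 79.6 CPM in placebo livers, and overlapped. Dnajc3, known as an ER cochaperone and as an inhibitor of eIF2α kinases, had 297, 196 and 237 CPM in DHT livers, against 259, 242 and 190.1 CPM in placebo livers, also overlapping. Over 8 members of the ER lumen, a list written after the values were seen, 4 fitted differences lay above 0 and 4 below, or 5 and 3 with library size alone. Their CPM summed to 3037, 1942 and 2248 in DHT livers, against 2454, 2143 and 2002 in placebo livers. DHT library 1 gave the highest sum and DHT library 2 the lowest of all 6.

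Matches of the ER stress element, searched as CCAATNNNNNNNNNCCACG on both strands, stood in the windows of 3 of 58 members, Hspa5, Hsp90b1 and Dnajc3, and in 0.137% of 27025 genes. They are shown because textbook knowledge puts these 3 members under the unfolded protein response. The element does not mark every ER member, since Dnajb9 and Dnajb11 had windows without a match. For Hspa5 (chr2:34772020-34772049, plus strand) and Hsp90b1 (chr10:86705527-86705556, minus strand) 30 bases around the match in capitals are given, and for Dnajc3 (chr14:118937732-118937931, plus strand) the 200 bases before the start, all from RefSeq's table for GRCm38.p6.
Hspa5: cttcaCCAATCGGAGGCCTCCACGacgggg
Hsp90b1: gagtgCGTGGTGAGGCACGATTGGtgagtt
Dnajc3: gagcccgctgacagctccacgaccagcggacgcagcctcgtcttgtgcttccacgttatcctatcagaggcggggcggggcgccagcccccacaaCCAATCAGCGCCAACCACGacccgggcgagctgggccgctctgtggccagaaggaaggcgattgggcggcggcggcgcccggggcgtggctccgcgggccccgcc
The match shown for Hsp90b1 reads on the strand opposite to the gene, and a further match on the gene's own strand lies further upstream. The 3 genes had log2 fold changes of 0.51, -0.27 and 0.08, none of them called.

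The mitochondrial chaperonin showed the clearest mark of placebo library 3. Hspe1, the lid of the folding chamber, had 111, 115 and 171 CPM in DHT livers, against 181, 137 and 494 CPM in placebo livers. Hspd1, the chamber itself, had 442, 361 and 307 CPM in DHT livers, against 388, 569 and 274 CPM in placebo livers. Placebo library 3 was thus the highest library for Hspe1 and the lowest for Hspd1, although the genes lie head to head on chromosome 1 and share a promoter. The ratio of Hspe1 to Hspd1 in CPM was 0.251, 0.317 and 0.557 in DHT livers and 0.466, 0.241 and 1.80 in placebo livers. Their log2 fold changes were -1.03 ± 0.49 (SE) with an edgeR adjusted p of 0.347 and -0.15 ± 0.33 with 0.86. Without placebo library 3 the change of Hspe1 was -0.27.

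The shared promoter holds the triple heat shock unit, which stood in the windows of 4 of 58 members (Hspd1, Hspe1, Hsph1 and Dnajb6) and in 0.662% of 27025 genes. Hsp90aa1, Hsp90ab1, Hspa8 and Hspa9 were among the members without a window and were not searched for any motif. The sites of Hspe1 (chr1:55088053-55088082, plus strand) and Dnajb6 (chr5:29735844-29735873, plus strand) are shown for comparison as 30 bases each, from the same RefSeq table, with the units in capitals. In Hspe1 a pair of overlapping matches spans 18 bases, and in Dnajb6 the match spans 13.
Hspe1: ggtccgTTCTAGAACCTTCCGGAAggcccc
Dnajb6: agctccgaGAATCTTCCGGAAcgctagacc
In Hsph1 the match lies after the start. Of the 4 genes with the triple, Hspe1, Hspd1 and Dnajb6 had lower means in DHT livers and Hsph1 a higher one. A link between the element and these differences was not tested. None of these differences was called by edgeR's test.

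Placebo library 3 read high at members with short exons and low at members with long ones. Against the mean of placebo libraries 1 and 2, its median log2 ratio was 1.02 over the 7 members of up to 1500 bases and -0.65 over the 12 above 6000 bases. The same medians over all genes were 0.74 and -0.54, so the pattern was not particular to the members. Dnajc15 (648 bases of exon) lay highest at 2.09, followed by Hspb11 at 1.64 and Hspe1 at 1.63, and Dnajc16 (6510 bases) lay lowest at -1.94. Across the 62 members, the ratio had a Pearson correlation of -0.55 with log10 exon length, and across 15126 genes of -0.42, as a description of 1 library. Its part in the comparison of the groups was addressed by leaving the library out. The count of all genes called was 862 without it and 250 with it. The members called without it were Hspb1 as higher and Hspa2 as lower. DHT library 3 was the highest DHT library for Dnajc15 (33.8 CPM), Hspb11 (3.83 CPM) and Hspe1 (171 CPM). It was the lowest DHT library for Dnajc16 (8.30 CPM). Leaving out placebo library 3 did not address this, and whether DHT library 3 followed exon length was not tested.

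**Figure D4:**
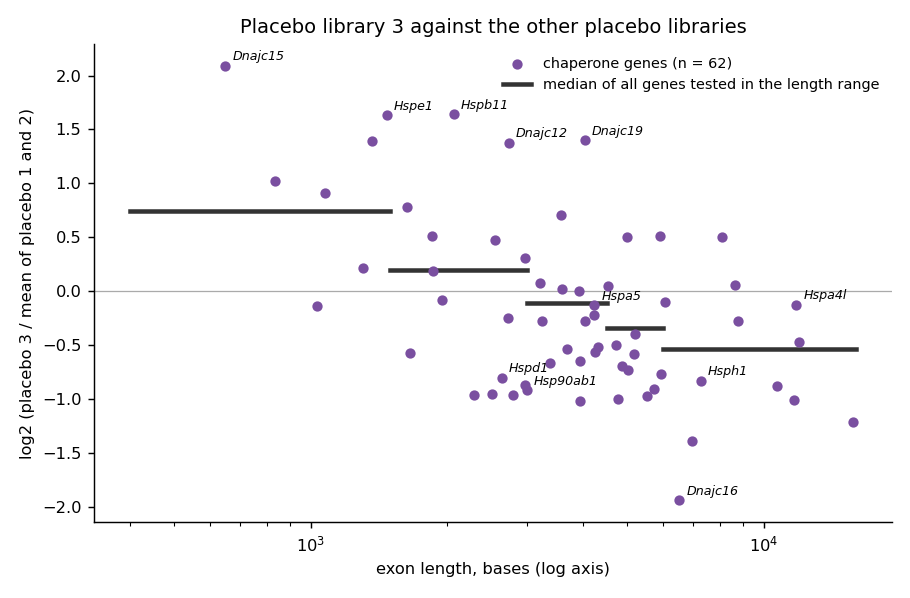
Log2 ratio of placebo library 3 to the mean of placebo libraries 1 and 2 (0.1 CPM added) against exon length on a log axis, for the 62 tested members, with bars at the median of all genes in each length range. Dnajc15 at 2.09 and Dnajc16 at -1.94 mark the ends of a downward trend that all genes share.

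DNAJA members, among them general DnaJ partners of cytosolic HSP70, differed by at most 0.41 on the log2 scale. Dnaja2 had 133, 118 and 121 CPM in DHT livers, against 139.8, 165 and 189 CPM in placebo livers. All DHT livers were lower, with a log2 fold change of -0.41 ± 0.24 (SE) and an edgeR adjusted p of 0.434. Dnaja1, which is farnesylated, had 299, 226 and 289 CPM in DHT livers, against 225, 269 and 257 CPM in placebo livers. Its difference of 0.11 ± 0.25 was -0.07 once a trend with gene length was removed, an alternative chosen after the data were seen. Dnaja4, at 1.34 to 2.40 CPM in DHT livers and 1.94 to 2.84 CPM in placebo livers, shares 44.1% of its exon length with Wdr61 on the other strand.

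In the DNAJB family 8 of 10 tested members had a higher fitted level in DHT livers, and edgeR's test called none. Dnajb2, which carries ubiquitin-interacting motifs and sends clients to the proteasome, had 79.1, 70.8 and 63.4 CPM in DHT livers, against 51.5, 47.1 and 33.4 CPM in placebo livers. Its groups were apart, with a log2 fold change of 0.69 ± 0.25 (SE) and an edgeR adjusted p of 0.241. Dnajb4 had 42.2, 35.9 and 32.7 CPM in DHT livers, against 28.3, 27.2 and 22.9 CPM in placebo livers, likewise apart at 0.50 ± 0.23 with an adjusted p of 0.335. Dnajb1, or Hsp40, the stress-inducible partner of HSP70, had 31.0, 20.8 and 24.6 CPM in DHT livers, against 23.3, 22.3 and 24 CPM in placebo livers. Its difference of 0.14 ± 0.24 came from DHT library 1 and was -0.03 without it. Dnajb6, which keeps polyglutamine and amyloid proteins from aggregating, ran the other way with 43.7, 43.4 and 43.5 CPM in DHT livers, against 60.9, 90.1 and 70.3 CPM in placebo livers. The DHT livers were nearly equal and all below placebo, with a log2 fold change of -0.76 ± 0.24, an edgeR adjusted p of 0.181 and a DESeq2 adjusted p of 0.0481. It was 0.0632 with the replicate block, and 0.0198 with the block once a trend with gene length was removed.

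DNAJC members, which share little beyond the J domain, split evenly with 12 of 25 tested above 0. Dnajc15, an inner mitochondrial membrane protein of the import machinery, had 19.6, 21.2 and 33.8 CPM in DHT livers, against 31.9, 25.3 and 122 CPM in placebo livers. Placebo library 3 set its log2 fold change of -1.27 ± 0.59 (SE), which was -0.20 without that library. Its edgeR adjusted p was 0.341, or 0.0269 with the replicate block, and 0.145 with the block once a trend with gene length was removed. Dnajc25 had 30.3, 30.3 and 27.7 CPM in DHT livers, against 50.1, 35.3 and 44.2 CPM in placebo livers, with every DHT liver lower, a difference of -0.55 ± 0.23 and an adjusted p of 0.30. Dnajc8, a splicing-associated DnaJ protein, had 20.7, 24.7 and 26.1 CPM in DHT livers, against 33.9, 28.7 and 43.7 CPM in placebo livers, again with no overlap, at -0.57 ± 0.25 and an adjusted p of 0.315. Dnajc22, the family's highest per kilobase in DHT livers at 51.1 RPKM and behind Dnajc15 in placebo livers at 44.8 RPKM, had 95.2, 92.4 and 96.2 CPM in DHT livers, against 68.2, 76.9 and 104 CPM in placebo livers, which overlapped. The other 21 tested members had log2 fold changes between -0.81 (Dnajc12) and 0.54 (Dnajc28).

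Summed by family, ratios of DHT to placebo livers lay between 0.737 for the chaperonin and 1.59 for HSP110. HSP70 members summed to 3320, 2231 and 2457 CPM in DHT livers, against 2610.2, 2413 and 1916 CPM in placebo livers, a ratio of 1.15 that was 1.013 without DHT library 1. HSP90 members summed to 2516, 1881 and 1699 CPM in DHT livers, against 2371, 2009.9 and 1437 CPM in placebo livers, a ratio of 1.05. The chaperonin genes summed to 553, 476 and 478 CPM in DHT livers, against 569, 707 and 768 CPM in placebo livers. These groups did not overlap on TMM-scaled library sizes. With library size alone DHT library 1 lay above placebo library 1, so the groups overlapped, and the ratio was 0.842. Hspe1 and Hspd1 each overlapped on their own, and the chaperonin ratio was 0.788 without placebo library 3. Ratios of DNAJA (0.951) and DNAJC (0.949) became 1.09 and 1.08 with library size alone, and that of DNAJB was 1.13. These sums weigh members by their counts and were not tested.

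Genes that work with the chaperones were read from 6 lists. In the mitochondrial list 1 of 14 genes was called higher and 0 lower, where 0.952% of all genes were called higher and 0.701% lower. Clpx, the unfoldase that feeds proteins to the mitochondrial protease ClpP, had 224, 193 and 253 CPM in DHT livers, against 37.8, 59.4 and 61.4 CPM in placebo livers. The groups were far apart, with a log2 fold change of 2.08 ± 0.29 (SE) and an edgeR adjusted p of 0.0133, which lay between 0.0529 and 0.0599 when DHT library 1 or 2 or placebo library 1 or 2 was left out. Tomm20, a receptor of the outer membrane import complex, had 35.6, 39.7 and 45.2 CPM in DHT livers, against 47.0, 46.0 and 132 CPM in placebo livers, and was not called.

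Among 25 partners of HSP70 and HSP90, 0 were called by edgeR and 4 had an unadjusted p under 0.05, where 15.9% of all genes did. Bag2, an inhibitor of the ubiquitin ligase CHIP, had 1.40, 1.73 and 2.13 CPM in DHT livers, against 4.85, 2.72 and 6.09 CPM in placebo livers, with an edgeR adjusted p of 0.136, or 0.00813 with the replicate block and 0.0117 by DESeq2. Ahsa2, an activator of the HSP90 ATPase, had 24.1, 18.2 and 22.2 CPM in DHT livers, against 11.6, 13.3 and 12.1 CPM in placebo livers, with an adjusted p of 0.151, or 0.0481 with the block and 0.0424 by DESeq2. Both pairs of groups were apart, in opposite directions. With the block 2 of the 25 partners were called higher, Ahsa2 and Bag3, and 2 lower, Bag2 and Fkbp5 (0.0011). In that fit 5.44% of all genes were called higher and 5.28% lower. Fkbp5 had a log2 fold change of -1.26 with an edgeR adjusted p of 0.161. It was also called by DESeq2 (0.0255) and by edgeR without placebo library 3 (0.0151). Of 18 tested heat shock factors and other HSF1 targets, edgeR called 0 and 2 had an unadjusted p under 0.05, against 15.9% of all genes. Bag3, the partner of Hspb8, had 53.0, 37.6 and 25.5 CPM in DHT livers, against 25.8, 22.4 and 10.8 CPM in placebo livers, with an adjusted p of 0.286, or 0.00837 with the block. Zfand2a, a stress-induced partner of the proteasome, had 11.2, 12.5 and 12.7 CPM in DHT livers, against 5.26, 5.06 and 9.58 CPM in placebo livers, with an edgeR adjusted p of 0.235. It was called with the block (0.0276), by limma's voom (0.0305) and by edgeR without placebo library 3 (0.0136).

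In the ER list edgeR called 0 of 20 genes, with 2 at an unadjusted p under 0.05, against 15.9% of all genes. The list's median log2 fold change was 0.36, against -0.02 over all genes. With library size alone these medians were 0.54 and 0.17. When a library was left out, the list's median lay between 0.21 (without DHT library 3) and 0.44 (without DHT library 2). Syvn1, the ubiquitin ligase of ER-associated degradation, had 148, 78.1 and 87.3 CPM in DHT livers, against 59.5, 47.9 and 23.3 CPM in placebo livers, with an adjusted p of 0.195, or 0.000705 with the replicate block. Ddit3, the stress factor CHOP, had 7.32, 6.15 and 8.37 CPM in DHT livers, against 2.61, 2.05 and 4.73 CPM in placebo livers, with an edgeR adjusted p of 0.164. It was called with the block (0.0035), by DESeq2 (0.0432), by limma's voom (0.0275) and by edgeR without placebo library 3 (0.0111). In both genes every DHT liver lay above every placebo liver, an order that held for 12.7% of all genes. Hspa5 overlapped through DHT library 2, and its log2 fold change lay between 0.25 and 0.70 when a library was left out. Activity of the unfolded protein response was not tested. With the block 4 of the 20 genes were called higher, Syvn1, Ddit3, Creld2 (0.0422) and Ern1 (0.0457), where 5.44% of all genes were.

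Fitted differences of all 14 TRiC chaperonin and prefoldin genes, which fold actin and tubulin, lay below 0 with a median of -0.48, though edgeR's test called none. With library size alone 2 of them were above 0 and the median was -0.29. Without placebo library 3 again 2 were above 0, and the median was -0.19. Of all 15126 genes tested, 7844 lay below 0 in the fit of all 6 libraries. Cct7, a subunit of the TRiC ring, had 94.6, 86.8 and 93.0 CPM in DHT livers, against 123, 124 and 159 CPM in placebo livers, with an edgeR adjusted p of 0.291. Pfdn5, a subunit of prefoldin, had 48.1, 44.7 and 70.2 CPM in DHT livers, against 81.1, 54.0 and 218 CPM in placebo livers, led by placebo library 3, with an adjusted p of 0.327, or 0.0333 with the block. Cold-inducible RNA-binding genes respond to temperature in the opposite sense to heat shock genes, and edgeR's test called neither of the pair. Rbm3 had 12.5, 23.9 and 19.3 CPM in DHT livers, against 48.6, 44.6 and 73.3 CPM in placebo livers, a log2 fold change of -1.58 ± 0.33 (SE) with an edgeR adjusted p of 0.0653. The call depended on the setting: the adjusted p was 3.23e-05 with the block, 0.0108 with no filter, 0.0239 without placebo library 3, 0.000529 by DESeq2 and 0.0455 by limma's voom. Every DHT liver lay below every placebo liver. Cirbp had 6.98, 9.17 and 10.9 CPM in DHT livers, against 10.2, 11.4 and 19.4 CPM in placebo livers, which overlapped.

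**Figure D5:**
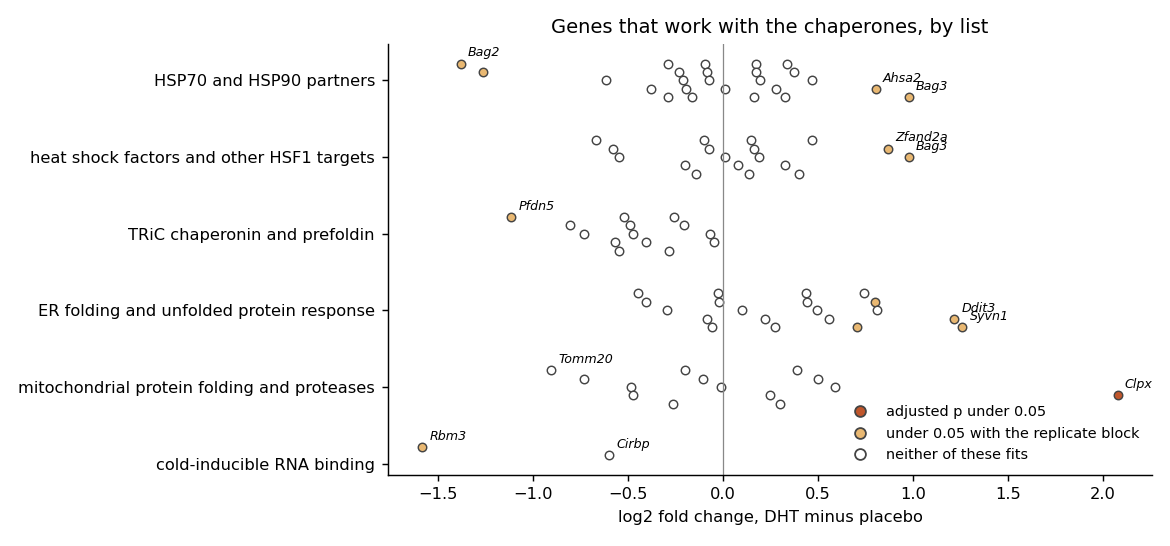
Log2 fold changes, DHT minus placebo, of the tested genes in 6 lists of chaperone partners, each point a gene. Clpx at 2.08 is the filled point, the pale points missed the threshold in that fit and passed it with the replicate block, and all 14 genes of the TRiC and prefoldin row lie below 0.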

How the data were processed

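Liver RNA of 3 DHT and 3 placebo samples was read as paired ends of 150 bases, per the labels. The authors deposited raw counts per gene, whole numbers with no normalisation, with exon coordinates, strand and exon length for 49212 genes. The submitters' processing notes name Trimmomatic 0.36, STAR 2.5.2b, featureCounts, Subread 1.5.2 and GRCm38. How strand and reads with several matches were treated is not stated there, so overlapping and near-identical genes are uncertain.

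Counts were scaled by TMM and filtered with filterByExpr (minimum count 10), and 15126 genes were tested with edgeR 4.0.16 (robust quasi-likelihood, R 4.3.3) and Benjamini-Hochberg adjustment. A standard error is the log2 fold change over the square root of its F. CPM and RPKM use the TMM library sizes and the deposited exon length. Alternatives were DESeq2 1.42.0, limma 3.58.1, other scalings and filters, the replicate block and leaving out each library. The fit was checked on simulated data.

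Same-numbered libraries deviated together from their group means (r = 0.246, 0.145 and 0.602 over 15126 genes), although DHT libraries 1 and 2 each correlated more with the other number (0.445 and 0.287). The pairing comes from the title numbers alone, and the labels state no shared litter or day. This check cannot establish it, since libraries 1 and 2 correlated more across numbers. Deviations from a group mean also depend on each other. The highest r was that of the libraries numbered 3, and the block cannot tell their shared deviation from a litter or day. Blocked values are printed where they change a call. Every pair of libraries differed by more than sampling noise.

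Named members are those called, in each family the highest in RPKM, the 3 of smallest p and the largest change, and a list of 18 well-known members. Named partners are those called and the 2 of smallest p per list. The members and lists were chosen with earlier results of these data known. Promoters are RefSeq windows for GRCm38.p6, matched by symbol for 58 of 72 members. Intervals and floors cover counting error only.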

Additional observations from a re-analysis of the deposited data

How the results depend on the processing

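Over 17 alternatives (15 planned, 2 chosen after the data were seen) and 42 named genes, direction and side of the threshold held in 647 fits, a call was gained in 36 (12 genes), lost in 6 (Hspb1 and Clpx) and a direction turned in 22 (7 genes). The cause of these changes was not tested. Members called higher (1) were 2 with the replicate block and 2 with the block and a gene length trend removed, and between 0 and 1 when a library was left out. Members called lower (0) were 2 with the block, 1 with limma's voom, 2 with DESeq2, 2 with the block and the trend removed, and between 0 and 1 when a library was left out. Genes called in all (250) numbered 521 with no filter, 1621 with the block, 707 with voom, 1062 with DESeq2, 381 with the trend removed and 1515 with the trend removed and the block, and between 84 and 862 when a library was left out, the lowest without DHT library 2 and the highest without placebo library 3.

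Log2 fold changes that turned lay within 1 standard error of 0 in the fit of all 6 libraries. With library size alone, Hspa8 was 0.13, Hspa9 0.18, Hspb8 0.10 and Hspd1 0.037. With the length trend removed, Dnaja1 was -0.066, Dnajc3 -0.015 and Hspb8 0.016, and with the block as well Dnaja1 was -0.056 and Dnajc3 -0.032. Dnajc3 was -0.031 with voom, and Hspa9 0.0028 with no filter and 0.031 with the block. Leaving out a library gave ranges of -0.028 to 0.27 for Dnajb1, -0.089 to 0.22 for Dnajc3, -0.20 to 0.14 for Hspa8, -0.20 to 0.29 for Hspa9, -0.24 to 0.10 for Hspb8 and -0.38 to 0.15 for Hspd1. Besides the values printed in the report, the replicate block changed no other call of a named gene.

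With 3 libraries a group, and 1 placebo library that stands apart, each library weighs on every call. The deviation was not confined to placebo library 3, since DHT library 3 deviated together with it (r = 0.602 over 15126 genes). The share of this deviation in the blocked calls was not tested. The 10 members below the filter had too few counts to compare. The DHT libraries alone hold Y-linked transcripts, and the design cannot separate the treatment from that.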
